A study of Homo sapiens with 12 samples.

Results

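DNA mismatch repair removes base mismatches and small insertion or deletion loops that replication leaves behind. MutS heterodimers find the lesion, MutL heterodimers are recruited to it and direct a nick to the new strand, and the exonuclease EXO1 removes the stretch that holds the error before the gap is filled again. MSH6 and MSH3 are alternative subunits of the MutS heterodimers. The complex with MSH6 binds mainly mismatches and short loops, and that with MSH3 mainly longer loops. PMS2, PMS1 and MLH3 are, likewise, alternative subunits of the MutL heterodimers, of which the complex with PMS2 carries the main endonuclease activity in repair and that with MLH3 is best known from meiosis. HCT116, a human colorectal carcinoma line, is a standard example of a mismatch-repair-deficient cell, in which short repeats of the genome are unstable.

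The genes described are *MSH6*, *MSH3*, *PMS2*, *PMS1*, *MLH3* and *EXO1*, chosen by name as subunits and exonuclease of this pathway. They are 6 of the 58037 genes of the count table. All 6 had at least 10 counts, as did 12333 of 19629 protein-coding genes. Poly(A) RNA of wild-type HCT116 cells was sequenced after treatment for 8 h with the solvent DMSO, with Nutlin-3a at 10 μM, with NVP-2 at 20 nM, or with both compounds, and each condition had 3 samples. Nutlin-3a activates p53 by keeping it from MDM2, and NVP-2 inhibits CDK9, the kinase of P-TEFb. All 12 columns of the table held the same count for every gene, so they were counted as 1 sample with a total of 22720718 counts. Its treatment is not known, and no effect of either drug and no spread between replicates could be measured. Each value below is thus 1 measurement, its interval covers counting error only, and no test was made. Whether other copies of the table differ was not examined. Epithelial markers were present, as the label of the line implies. The keratins *KRT8*, *KRT18* and *KRT19* had 80391, 34234 and 21926 counts, and *CDH1* and *CLDN4* 1484 and 1010. Of the markers of other cell types, *PTPRC* and *COL1A2* had 0 counts, which at this depth allows up to 0.132 counts per 1000000 (CPM), while *CD3E* had 4, *PECAM1* 17, *ALB* 32 and *COL1A1* 199.

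In hg38, with the GENCODE v44 annotation, the genes lie on 5 chromosomes. *MSH6* (ENSG00000116062) and *PMS1* (ENSG00000064933) are both on the plus strand of chromosome 2, from 47695530 to 47810063 and from 189784085 to 189877629, with 10 and 13 exons in the canonical transcript. *MSH3* (ENSG00000113318) covers 222164 bp of chromosome 5 on the plus strand, from 80654652 to 80876815, the longest span of the 6, with 24 exons. *EXO1* (ENSG00000174371) is on the plus strand of chromosome 1 from 241847967 to 241895148, with 16 exons. *PMS2* (ENSG00000122512), on chromosome 7 from 5970925 to 6009130, has 15 exons, and *MLH3* (ENSG00000119684), on chromosome 14 from 75013769 to 75051532, has 13. Both *PMS2* and *MLH3* are on the minus strand.

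The members differed widely in their counts. *MSH6* had 872 counts, or 38.4 CPM with a 95% Wilson interval from 35.9 to 41.0. *PMS1* followed with 580 counts, or 25.5 CPM (23.5 to 27.7). *EXO1* had 318 counts, or 13.996 CPM (12.5 to 15.6). These 3 genes held most of the 2102 counts that fell on the members. *PMS2* had 230 counts, or 10.1 CPM (8.90 to 11.5). *MLH3* and *MSH3* were far lower, with 66 counts, or 2.90 CPM (2.28 to 3.70), for *MLH3* and 36 counts, or 1.58 CPM (1.14 to 2.19), for *MSH3*. Counts grow with the length of the transcript, so levels of different genes are compared below as reads per kilobase and per 1000000 counts (RPKM), with the merged exons of all annotated transcripts as the length of the gene unless another length is named.

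The sequences of the members are shown first for a feature that bears on a repair-deficient line. Runs of a single base within coding sequence are sites where slippage of the polymerase, if not repaired, shifts the reading frame. Coding sequences of the canonical transcripts were searched for runs of 8 or more of the same base. Such a run was found in 4 of the 6 members, *MLH3*, *MSH3*, *MSH6* and *PMS2*, and in 5.72% of 20046 coding sequences of protein-coding genes. A longer sequence has more places for a run, and this background was not matched for length. The members have from 2538 (*EXO1*) to 4359 (*MLH3*) coding bases. In *PMS1* and *EXO1* the longest run was 7 bases. The MutS homologues *MSH4* and *MSH5*, with 2808 and 2502 coding bases, had no run longer than 6. The runs are printed in capitals with 10 bases of the reference transcript on either side.
*MLH3*, first run: agagaaagagAAAAAAAAAgaatctagca
*MLH3*, second run: attgcccaacAAAAAAAAttgcagaacg
*MSH3*: tgttagggacAAAAAAAAgggcaacatt
*MSH6*: ccggaagataCCCCCCCCttcttagagc
*PMS2*: actggagaagAAAAAAAAgacgtgtcca

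All of these runs lie in exons and within the coding sequence in hg38. The longest, 9 adenines in *MLH3*, is in exon 2 of 13, on the minus strand of chromosome 14 from 75047901 to 75047909, and the other *MLH3* run is in the same exon from 75047635 to 75047642. The *MSH3* run of 8 adenines is in exon 7 of 24, on the plus strand of chromosome 5 from 80675096 to 80675103, and begins at base 1141 of the 3411 coding bases. The *MSH6* run is the only one of cytosines. It lies late in the coding sequence, in exon 5 of 10, on the plus strand of chromosome 2 from 47803501 to 47803508. The *PMS2* run is in exon 11 of 15, on the minus strand of chromosome 7 from 5987526 to 5987533. These are reference sequences. Counts per gene do not show which length a run had in the sequenced cells.

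Among the MutS subunits, *MSH6* mRNA was far more abundant than *MSH3* mRNA. *MSH6*, which recognizes mismatches, had an RPKM of 2.17 (2.03 to 2.31) and *MSH3*, which recognizes loops, one of 0.297 (0.215 to 0.412). The ratio of *MSH6* to *MSH3* was 7.28, with an exact 95% interval from 5.22 to 10.5. It depended strongly on the length that was used. The merged exons of *MSH6*, at 17722 bases from 26 annotated transcripts, are 4.16 times as long as its canonical transcript of 4265 bases, whereas for *MSH3* they are 1.20 times as long. Per length of the canonical transcript, *MSH6* had an RPKM of 8.999 and *MSH3* one of 0.357, and the ratio was 25.2 (18.1 to 36.3). The summed RPKM of both subunits was 87.9% *MSH6* with merged exons and 96.2% *MSH6* with canonical transcripts, so that *MSH6* made up most of it with either length.

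**Figure D1:**
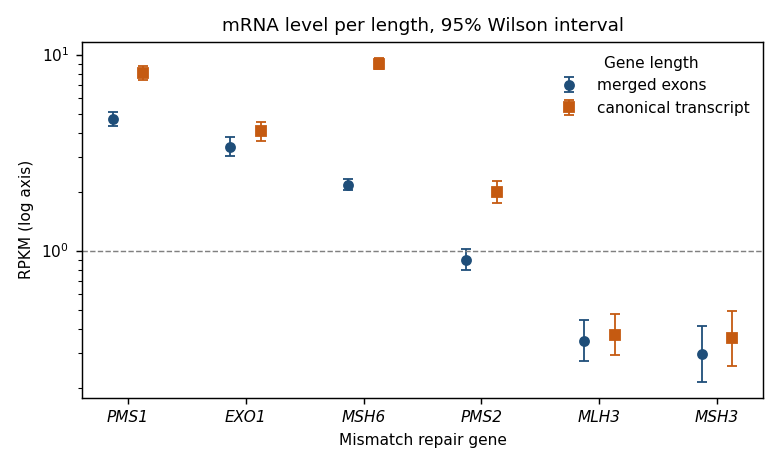
RPKM of the 6 genes on a log axis, from 1 set of counts, with the merged exons (circles) or the canonical transcript (squares) as the length, and 95% Wilson intervals of counting error as bars. The dashed line marks an RPKM of 1. *MLH3* and *MSH3* lie under it with both lengths, and *MSH6* moves from 2.17 to 8.999.

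Among the MutL subunits, *PMS1* was the most abundant. *PMS1* is a MutL subunit whose part in repair is less well defined, and its RPKM was 4.69 (4.32 to 5.08). *PMS2*, the subunit with the endonuclease of the main MutL complex, had an RPKM of 0.901 (0.792 to 1.03). *MLH3*, the subunit best known from meiotic crossing-over, had one of 0.348 (0.273 to 0.442). *PMS1* thus exceeded *PMS2* by 5.20-fold, and the inverse ratio of *PMS2* to *PMS1* was 0.192 (0.164 to 0.224). The count of *PMS2* is less certain than its intervals show, as described below for its copies. *PMS2* exceeded *MLH3* by 2.59-fold (1.96 to 3.46), and *PMS1* exceeded *MLH3* by 13.5-fold (10.4 to 17.7). The order of these 3 genes was the same with each of the 4 lengths tried, although the share of *PMS2* in their summed RPKM was 15.2% with merged exons and 28.6% with coding length. With canonical transcripts the shares were 77.4% for *PMS1*, 19.02% for *PMS2* and 3.56% for *MLH3*.

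**Figure D2:**
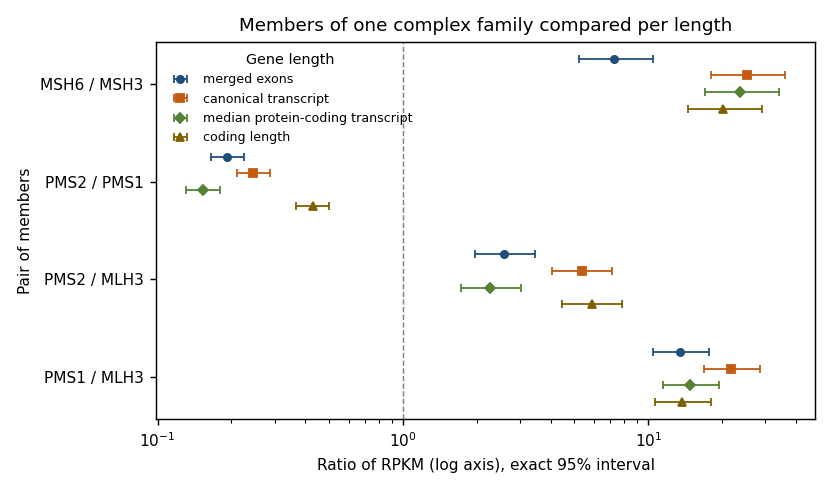
Ratio of RPKM for the *MSH6* and *MSH3* pair and the 3 pairs of MutL genes on a log axis, with each of 4 gene lengths as a separate marker and exact 95% intervals of counting error as bars. The dashed line marks a ratio of 1. No interval reaches it, and the *MSH6* to *MSH3* ratio shows the widest gap between lengths, from 7.28 to 25.2.

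*EXO1* encodes the 5′ to 3′ exonuclease that acts after both types of recognition complex. Its RPKM was 3.38 (3.03 to 3.78), which placed it between *PMS1* and *MSH6*. Neighbours in the order of the 6 genes were compared by the interval of their ratio. *PMS1* exceeded *EXO1* by 1.38-fold (1.21 to 1.59), *EXO1* exceeded *MSH6* by 1.56-fold (1.37 to 1.78) and *MSH6* exceeded *PMS2* by 2.40-fold (2.08 to 2.79). The ratio of *MSH6* to *PMS2* was 4.53 (3.91 to 5.26) with canonical transcripts. *MLH3* and *MSH3* were not separated with merged exons, with a ratio of 1.17 (0.767 to 1.81), nor with canonical transcripts or coding length, but with the median protein-coding transcript the ratio was 2.29 (1.503 to 3.54). The order of the top 3 genes held only for merged exons. With canonical transcripts *MSH6* came first, ahead of *PMS1* and *EXO1*, since the ratio of *EXO1* to *MSH6* was then 0.451 (0.395 to 0.513), and the ratio of *PMS1* to *MSH6* was 0.899 (0.808 to 0.9995). With the median length of the protein-coding transcripts, which is only 628 bases for *EXO1*, *EXO1* came first. *PMS2*, *MLH3* and *MSH3* took the fourth, the fifth and the sixth place with all 4 lengths.

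The members were then placed among the 12333 protein-coding genes with at least 10 counts, which had a median RPKM of 2.96. *PMS1* lay above 59.7% of them, *EXO1* above 52.7% and *MSH6* above 43.4%. *PMS2* lay above 27.3%, *MLH3* above 13.2% and *MSH3* above 11.4%. Thus none of the 6 was among the highly expressed genes of this profile, whose treatment is unknown, and *MSH3* and *MLH3* were in its lower range. With canonical transcripts the percentile of *MSH6* rose to 62.6, that of *EXO1* was 46.4 and that of *MSH3* 9.02. An RPKM of at least 1, the value that the study used by condition as its limit for an expressed gene, was met by 3 of the 6 members. These were *PMS1*, *EXO1* and *MSH6*. Of all 19629 protein-coding genes 44.6% met it, so the share of the members was close to that of the background. With canonical transcripts *PMS2* met it as well, at 1.99 (1.75 to 2.26), against a background of 49.1%. These are not the calls of the study, since its reads were counted with an older annotation than the one that gave the lengths here. Exons annotated only later lengthen a gene without adding counts. Whether *PMS2* meets the limit with the lengths of the study was not tested.

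**Figure D3:**
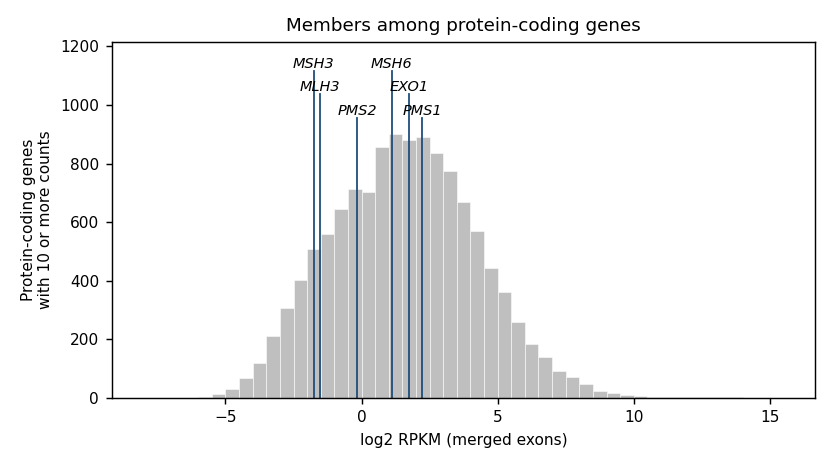
Histogram of log2 RPKM (merged exons) for the 12333 protein-coding genes with at least 10 counts, with the 6 genes marked by vertical lines. *PMS1* and *EXO1* lie above the median, *MSH6* and *PMS2* below it, and *MLH3* and *MSH3* in the lower tail, above 13.2% and 11.4% of the genes.

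The count of *PMS2* is less certain than that of the other members, because the genome holds near copies of the gene. The canonical transcript of each member was cut into all words of 75 bases, the length of the reads, and each word was looked for elsewhere on the chromosomes of hg38 without mismatches. Of the 5019 words of *PMS2*, 45.9% occurred elsewhere, and 94.97% of the places where they did lay within 20 kb of *PMS2CL*, a transcribed pseudogene on the same chromosome. Of these 2406 places, 2285 fell in an unnamed annotated gene, ENSG00000290835, and only 374 in *PMS2CL* itself. *PMS2P5* held 21. *MSH6*, *PMS1*, *MLH3* and *EXO1* had no such word, and *MSH3* had 17 of 4369. The table lists 15 annotated *PMS2* copies, 8 of them with at least 10 counts. *PMS2P1* had 275 counts and *PMS2CL* 245, each more than the 230 of *PMS2* itself, followed by *PMS2P3* with 43, *PMS2P5* with 27, *PMS2P8* with 24, *PMS2P7* with 15, *PMS2P4* with 12 and *PMS2P14* with 11. Together the 15 annotated copies had 672 counts, and *PMS2* made up 25.5% of the sum of 902. This sum leaves out ENSG00000290835, whose count is not given here. How the reads that fit more than 1 place were assigned is not given in the sources used here. The counts of *PMS2* and *PMS2CL* are thus uncertain in either direction. *PMS2P1*, the copy with the most counts, was not among the genes that held the most shared places. The ratios that include *PMS2*, and its place among the members, carry this uncertainty, which their intervals do not cover.

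**Figure D4:**
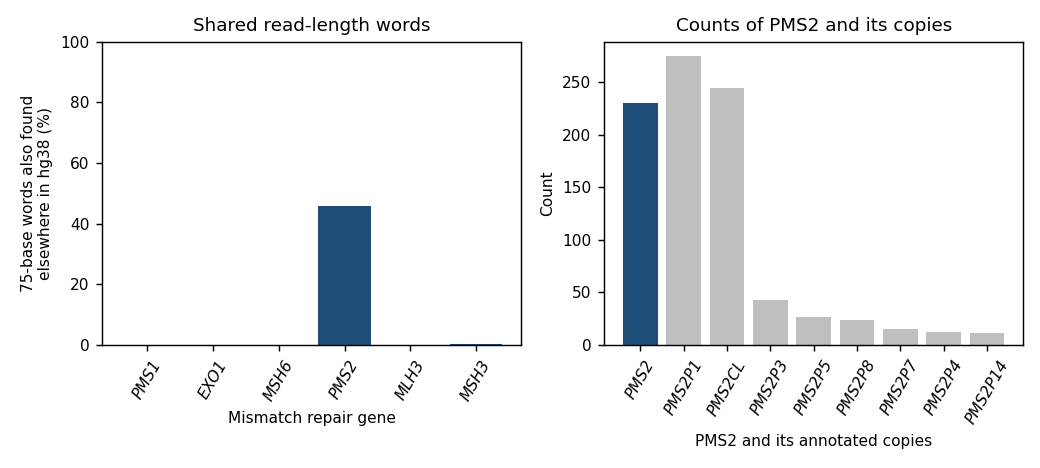
Left, percentage of the 75-base words of each canonical transcript that also occur elsewhere in hg38. Right, counts of *PMS2* and of its 8 annotated copies with at least 10 counts. *PMS2* stands apart with 45.9% of shared words, and *PMS2P1* and *PMS2CL* have more counts than *PMS2*.

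Some of the members start close to a gene on the opposite strand. *AIMP2*, which encodes a scaffold protein of the aminoacyl-tRNA synthetase complex, starts 223 bases from *PMS2* and was higher than its neighbour, with 872 counts and a ratio of 23.3 (20.1 to 27.1) with merged exons and 10.2 (8.82 to 11.9) with coding length. *ORMDL1*, a regulator of sphingolipid synthesis, starts 111 bases from *PMS1*, with 478 counts against 580 of *PMS1*. The ratio of *ORMDL1* to *PMS1* was 1.12 (0.991 to 1.27) with merged exons, 1.21 (1.07 to 1.37) with canonical transcripts and 5.02 (4.44 to 5.68) with coding length, so the comparison of this pair rested on the length used. *MSH6* overlaps *FBXO11*, a ubiquitin ligase subunit gene with 647 counts, over 20748 bases, and *EXO1* starts 76 bases from an unnamed long noncoding gene (ENSG00000288723) that had no row in the table. The neighbours named here are on the strand opposite to the member, and the authors counted reads by strand. The other annotated genes that overlap *MSH6*, *MLH3* or *PMS2* are small RNA genes and processed pseudogenes, and none of them had more than 2 counts.

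The promoters of the members were compared by letters, with a view to E2F, the factor that drives many genes of DNA replication. For each gene, the RefSeq window (GRCh38.p14) from 250 bases before to 50 after the start that lies at the canonical start was used, and all 6 members had one. The words TTTCCCGC, TTTCGCGC, TTTGCCGC and TTTGGCGC, which are forms of the E2F motif, were searched on both strands. A match was found in 4 of the 6 members and in 3.31% of all 35116 windows. Each of the words holds the pair CG, and the windows of the members were rich in it. They held from 22 (*MLH3*) to 40 (*PMS1*) such pairs, against a median of 14 over all windows. Windows of like CG content were not compared, so the 2 shares do not show an excess of E2F words beyond base composition. The matches are printed in capitals, on the strand of the gene.
*MSH3*, first match: gcgcggtcaagTTTGGCGCgaaattgtggc
*MSH3*, second match: ggtcaagtttgGCGCGAAAttgtggccgcc
*MSH6*: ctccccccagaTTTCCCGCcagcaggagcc
*PMS2*: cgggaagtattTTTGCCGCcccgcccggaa
*EXO1*: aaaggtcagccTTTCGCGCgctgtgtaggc

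The matches of *MSH3* overlap, in opposite directions, and lie on chromosome 5 between 80654534 and 80654567, upstream of its start. Those of *MSH6*, on chromosome 2 between 47783137 and 47783166, and of *EXO1*, on chromosome 1 between 241848197 and 241848226, lie at the start of the canonical transcript. That of *PMS2* is upstream of the start, on chromosome 7 between 6009131 and 6009160. *PMS1* and *MLH3* had no match in this window. The GC box GGGCGG was present in 5 of the 6 members, all but *MLH3*, and in 45.0% of all windows, and the TATA box TATAAA in none of them, against 11.5% of all windows. The GC content was 78.0% for *MSH6*, 72.0% for *PMS1*, 71.0% for *MSH3*, 65.0% for *EXO1*, 61.7% for *PMS2* and 51.0% for *MLH3*, with a median of 58.7% over all windows. Whether the matches bear on the levels was not tested. *MSH3*, with overlapping E2F matches in opposite directions, was the lowest of the members. *PMS1*, with none, had the highest RPKM with merged exons, and *MSH6*, with a match, had the highest with canonical transcripts. With merged exons *EXO1*, with a match, had rank 2, *PMS2*, with a match, rank 4, and *MLH3*, with none, rank 5.

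A list of factors that act after recognition was compared with the members, and most of them were expressed at a higher level. It holds the sliding clamp and its loader, replication protein A, DNA polymerase δ, DNA ligase and further factors of the reaction. Of its 17 genes, 14 had an RPKM of at least 1, against 44.6% of all protein-coding genes. The same number, 14, exceeded *PMS1*, the highest of the members with merged exons, as did 25.3% of all protein-coding genes. The median was 27.1 against 1.53 for the 6 members and 0.589 for all protein-coding genes. *PCNA*, the clamp that MutS and MutL complexes contact, had the highest RPKM of the list, 210.7 (205.7 to 215.8), which is 62.3-fold that of *EXO1* (55.6 to 69.9) with merged exons and 10.1-fold (8.99 to 11.3) with the median protein-coding transcript. *HMGB1*, a chromatin protein that can take part in excision, followed with 72.6. The lowest were *POLD4*, a small polymerase δ subunit, with 0.663 from 46 counts, and *RPA4*, a rarely expressed form of a replication protein A subunit, with 1 count. Another polymerase δ subunit gene, *POLD3*, was also under an RPKM of 1, at 0.840 from 105 counts. *PCNA* and most other genes of this list also serve replication, and a separate list of 16 S phase genes, with the replicative helicase, nucleotide synthesis and cyclins, was similar. It had a median RPKM of 54.8, and 15 of its genes exceeded *PMS1*, against the same 25.3% of all protein-coding genes. *TK1* and *TYMS*, both enzymes of thymidylate supply, were highest at 208.4 and 197.2, while the lowest were *CCNE1*, a cyclin gene, at 12.7, and *CCNE2*, its paralog, at 1.55.

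**Figure D5:**
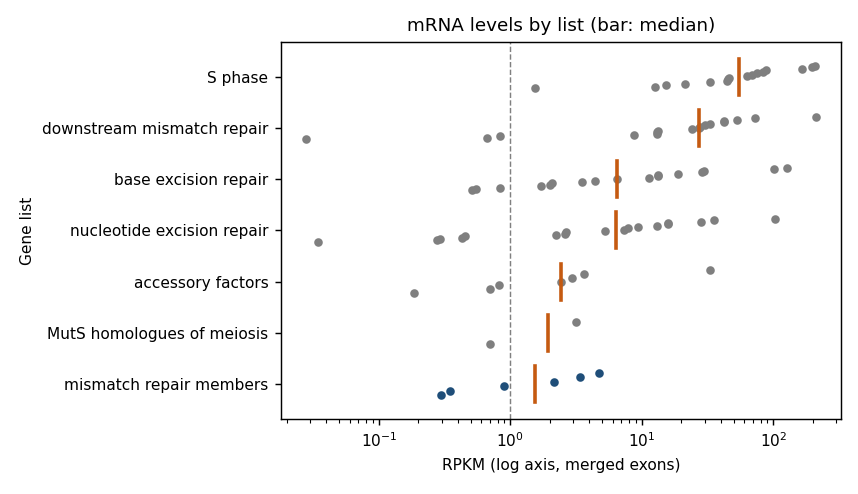
RPKM (merged exons, log axis) of each gene in the 6 mismatch repair genes and in 6 other lists, 1 point per gene, with the median of each list as a vertical bar and an RPKM of 1 as a dashed line. The mismatch repair genes have a median of 1.53, the downstream genes of the pathway one of 27.1 and the S phase genes one of 54.8.

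The remaining MutS homologues, *MSH4* and *MSH5*, encode a heterodimer of meiotic recombination with no established part in mismatch repair. Both had more counts than *MSH3*. *MSH4* had 234 counts and an RPKM of 3.15 (2.77 to 3.58), 10.6-fold that of *MSH3* (7.43 to 15.5). All of its 75-base words were unique to it, and no annotated gene overlaps it. Relative to *MSH6*, the order depended on the length, since the ratio of *MSH6* to *MSH4* was 0.688 (0.595 to 0.798) with merged exons and 2.86 (2.47 to 3.31) with canonical transcripts. *MSH5* had 100 counts and an RPKM of 0.700 (0.576 to 0.852), 2.36-fold that of *MSH3* (1.59 to 3.55). With the other lengths this ratio was higher, up to 6.002 (4.06 to 9.05) with the median protein-coding transcript. *MSH5* shares its strand and 22657 bases with a read-through gene, *MSH5-SAPCD1*, that had 1 count, and 21 bases with *SAPCD1*, that had 16. On the other strand *CLIC1*, with 10530 counts, overlaps *MSH5* over 87 bases. How reads in exons shared by 2 genes were assigned is not given in the sources used here. The count of *MSH5* and its ratio to *MSH3* carry this uncertainty, which the intervals do not cover. *MSH3* was thus the lowest of the 4 MutS homologues described here, with each of the lengths tried.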

How the data were processed

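Poly(A) RNA of 12 HCT116 samples was sequenced as single-end reads of 75 bases. The authors mapped reads to hg38 with ContextMap, using BWA, and the deposited counts are raw counts per gene from featureCounts, made by strand with Gencode version 25. Columns were assigned to samples by name. A comparison of the 12 columns, tested on a copy with added reads, found 0 genes that differed, so the edgeR tests of the design were not run.

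Identifiers without version suffix were matched to GENCODE v44 on hg38 (56993 of 58037, with 99.8% of the counts). RPKM was computed from the total of 22720718 counts and the merged exons of GENCODE v44, a later version than that of the counts. Intervals of 95% are Wilson intervals for levels and exact Clopper-Pearson intervals for ratios (Python 3.11.15, scipy 1.17.1), and they cover counting error only. Since the interval of a gene with few counts is wide, low levels such as that of *MSH3* are known less precisely.

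The members and gene lists were chosen with earlier results of these data known. Genes named were all members, their overlapping or opposite neighbours within 1000 bp, *PMS2* copies with 10 or more counts, and the 2 highest and 2 lowest genes of each list. *POLD3*, *MSH4* and *MSH5* as comparisons to members, and the pairs beyond the MutS and MutL subunits, as well as the sequence features, were chosen after values were seen. Genes of the pathway outside the members and lists were not analysed here, and 1 gene of the S phase list is not reported. Other gene lengths, denominators and thresholds were tried as alternatives.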

Additional observations from a re-analysis of the deposited data

How the results depend on the processing

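No paired analysis was possible because the table holds 1 distinct set of counts, and the replicate block and the fits that leave out a replicate were not run for the same reason. With canonical transcripts in place of merged exons, the RPKM was 8.999 for *MSH6*, 8.09 for *PMS1*, 4.06 for *EXO1* and 1.99 for *PMS2*. With the median protein-coding transcript it was 9.50 for *MSH6*, 13.6 for *PMS1*, 22.3 for *EXO1*, 2.08 for *PMS2* and 0.915 for *MLH3*. With coding length it was 9.41, 9.13, 5.51, 3.91 and 0.666 for these genes, and 0.465 for *MSH3*. With counts of nuclear protein-coding genes as the denominator it was 2.62 for *MSH6*, 5.67 for *PMS1*, 4.09 for *EXO1* and 1.09 for *PMS2*. Each of these values lies outside the counting interval of the reported one, which follows from the length or the denominator itself.

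The ratio of *MSH6* to *MSH3* was 25.2 with canonical transcripts, 23.8 with the median transcript and 20.3 with coding length. That of *PMS2* to *PMS1* was 0.246, 0.153 and 0.429. That of *PMS2* to *MLH3* was 5.35 with canonical transcripts and 5.87 with coding length, and that of *PMS1* to *MLH3* was 21.8 with canonical transcripts. None of these ratios crossed 1. In rank, *MSH6* came 1 with canonical transcripts and coding length, *PMS1* came 2 with all 3 other lengths, and *EXO1* came 3, 1 and 3. With coding length *PMS1* and *MSH6* were not separated, at a ratio of 0.971 (0.872 to 1.08).

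Without the filter on low counts the percentiles were 74.7 for *PMS1*, 70.3 for *EXO1*, 64.4 for *MSH6*, 54.3 for *PMS2*, 45.3 for *MLH3* and 44.1 for *MSH3*. When expression was defined by a CPM of 1 or more, all 6 members, the 2 meiotic MutS homologues and all 7 accessory factors passed. Of all 19629 protein-coding genes, 11377 had a CPM of 1 or more. With canonical transcripts the 2 meiotic homologues had an RPKM of at least 1, as did 49.1% of all protein-coding genes. The count of *PMS2* with its 15 annotated copies was 902. The remaining 30 alternative values stayed within their intervals, or within 1.5 times for counts. *MSH3*, with 36 counts, is the member whose level is least precise.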

Other observations

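Other DNA repair pathways were also expressed over a wide range in this profile of unknown treatment. Of 17 base excision repair genes 14 reached an RPKM of 1, with a median of 6.46 for the list. Among all protein-coding genes 44.6% reached it. *APEX1*, the main endonuclease for abasic sites, had an RPKM of 126.4 and *FEN1*, the flap endonuclease, one of 101.6, whereas the lowest were the glycosylase genes *MBD4*, with 0.551 from 42 counts, and *NEIL1*, with 0.514 from 81 counts. Of 18 nucleotide excision repair genes 13 reached an RPKM of 1, against the same 44.6%, with a median of 6.31 for the list. *RAD23B*, a partner of the damage sensor XPC, had 102.1 and *DDB1*, an adaptor of the damage-binding ubiquitin ligase, had 35.4. The lowest were the nuclease gene *ERCC4*, with 0.275 from 99 counts, and *ERCC6*, which acts in transcription-coupled repair, with 0.0343 from 18 counts.

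Among 7 accessory factors, 4 reached an RPKM of 1, or 57.1%, not far from the 44.6% of all protein-coding genes. The highest were the ribonuclease H2 subunit genes *RNASEH2A*, at 33.2, and *RNASEH2C*, at 3.63, and the lowest were *MCM9*, a helicase gene linked to mismatch repair, at 0.187, and the third ribonuclease H2 subunit gene, *RNASEH2B*, at 0.700. *SETD2*, which makes the histone mark that MSH6 binds, had 2.43. The level of *RNASEH2B* was 12.1 per length of the canonical transcript, so its place in the list rested on the length used, as that of *MSH6* did.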
